A study of Homo sapiens with 35 samples.

Results

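The 38 genes described here encode the autophagy machinery and the receptors that bring cargo to it. They were chosen by symbol and fall into 8 roles. These are 5 cargo receptors, 5 ATG8 genes, 5 genes of the ULK kinase complex, 6 of the PI3K complex, 5 of lipid supply and the WIPI proteins, 6 of ATG8 conjugation, 4 ATG4 proteases and 2 transcription factors. All 38 symbols were found among the 19665 protein-coding entries of the count table. RNA came from RPMI-8226, an established multiple myeloma cell line, in 35 libraries of 5 subcultures each on days 0, 1, 2, 4, 6, 8 and 10. Carfilzomib, a proteasome inhibitor, was given at 750 nM for 1 h and then washed out into fresh medium. The series asks how myeloma cells come out of that stress. Day 0 was taken as untreated, because the methods place it before the drug, although the sample labels name carfilzomib for day 0 as well. The subcultures were split from a single expanded culture of 1 cell line, so p-values here measure the spread between subcultures and not between separate experiments. The methods list 5 subcultures for RNA sequencing, so libraries of different days may come from the same subcultures. The tests here treat them as independent. From day 2 on, harvests preceded a change of medium, so days also differ in the age of the medium.

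Autophagy encloses cytoplasm in a growing membrane sac, the autophagosome, and delivers it to lysosomes. The ULK kinase complex starts the process, the PI3K complex marks the membrane with a signalling lipid that WIPI proteins read, ATG2 proteins and ATG9A bring in lipid, and a ubiquitin-like conjugation system ties ATG8 proteins to the membrane. Cargo receptors such as p62 bind both ubiquitinated proteins and the ATG8 proteins on the membrane. In antibody-secreting plasma cells this route removes misfolded protein beside the proteasome.

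The libraries held 6519392 to 10962890 estimated counts. All 7 plasma cell markers were detected in every library, with SDC1 at 209.6 to 362 CPM (protein-coding counts scaled to a common library size with TMM factors) and day means of TNFRSF17 between 14.5 and 80.9 CPM. Of 4 T cell markers, CD3E and CD8A had counts in every library (CD8A 2.99 to 10.2 CPM), CD4 was at 0 in 2 libraries and CD3D in 32. Both mature B cell markers, MS4A1 and PAX5, had counts in every library. Of 3 myeloid markers, ITGAM did (3.09 to 15.5 CPM), whereas CD14 was at 0 in 7 libraries and LYZ in 28. Of 4 stromal or epithelial markers, EPCAM and KRT18 had counts in every library, COL1A1 was at 0 in 6 libraries and COL1A2 in all 35. Summed over its markers, each list spanned 3.93 to 16.1, 5.76 to 16.9, 4.09 to 15.8 and 301 to 467 CPM in that order, against 1108 to 1718 CPM for the plasma cell list. The plasma cell sum was 1486 to 1594 CPM on day 0 and 1108 to 1229.6 on day 1, and the part of such shifts between days in the results was not tested. In bulk RNA, fewer cells of a kind and less RNA per cell cannot be told apart, and values are shares of each library's RNA rather than amounts per cell.

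Autophagy transcripts were more often higher than lower on day 1, mostly lower on day 2, and nearly balanced from day 4 on. A transcript is said to have risen or fallen where Q, the Benjamini-Hochberg adjusted p of the edgeR quasi-likelihood test over all 17999 protein-coding entries with a count, was at or below 0.05. On day 1, 17 of the 38 had risen, against 25.4% of all entries, and 10 had fallen, against 27.3%. On day 2, 5 had risen, against 23.2% of all entries, and 21 had fallen, against 24.4%. Day 4 had 8 risen and 10 fallen, against 19% and 20.1% of all entries, and day 6 had 8 and 8, against 17.5% and 17%. Day 8 had 8 risen and 10 fallen, against 18.2% and 18.6%, and day 10 had 7 and 7, against 16.1% and 15.8%. These comparisons share the day 0 libraries. The median log2 fold change of the 37 members that passed a filter on low counts was 0.17 on day 1, -0.22 on day 2 and -0.08 on day 10, beside 0.01, 0.00 and 0.00 over the 12301 entries that passed it. The shares of all entries, here and below, are over all 17999 and include those that did not pass this filter. Entries with few counts are harder to call, so the members and all entries are not matched in that respect.

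**Figure D1:**
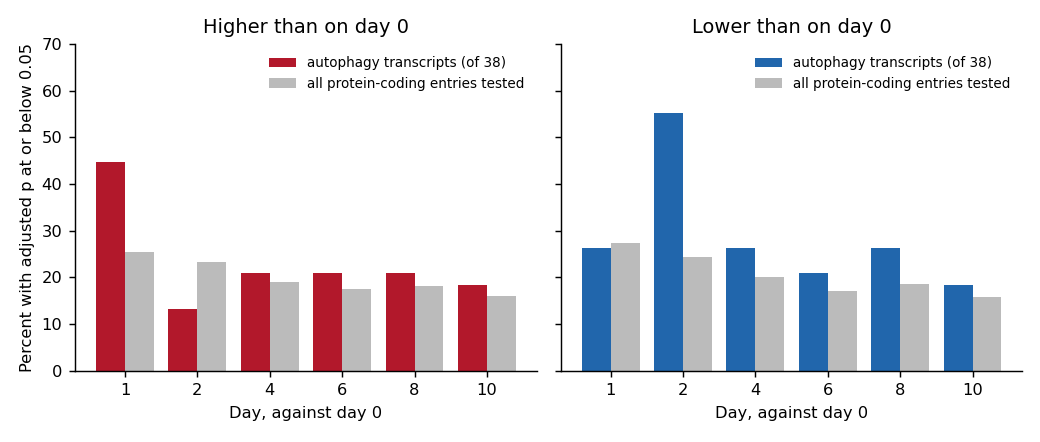
Percent of the 38 autophagy transcripts and of all 17999 protein-coding entries tested that were higher (left) or lower (right) than on day 0 with an adjusted p at or below 0.05, by day after the pulse. The bars of the autophagy transcripts stand furthest from the grey bars for rises on day 1 (17 of 38) and for falls on day 2 (21 of 38). The grey bars include entries with few counts, which are harder to call.

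Most of these changes were small. With a fold above 2 as a further cutoff, 4 members had risen on day 1 (SQSTM1, GABARAPL1, ATG16L1 and TFEB), against 7.27% of all entries, and 2 had fallen (WIPI1 and ULK2), against 13.2%. On day 2 no member had risen past that fold, against 6.32%, and 4 had fallen (SQSTM1, MAP1LC3B, GABARAPL1 and WIPI1), against 8.94%. From day 4 on, the coding entry of ATG16L1 alone was past it, higher on days 4, 8 and 10, against 4.12%, 3.6% and 2.41% of all entries, and with its transcript classes summed the gene was lower on those days. No member had fallen past that fold on those days, against 5.29%, 4.58% and 3.52%, and on day 6 none was past it in either direction, against 3.18% for rises and 3.52% for falls. In all, 35 of the 38 members were called on at least 1 day in either direction, against 68.9% of all entries, those with few counts included. The exceptions were MAP1LC3A, which had 8 counts in all libraries together, ATG14 and ATG5, and ATG5 passed on days 1 and 2 with its transcript classes summed. AMBRA1 and ATG9A were higher and ATG13 and WIPI1 lower on all 6 days, and SQSTM1, NBR1 and ULK1 were called on all 6 days in changing directions.

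**Figure D2:**
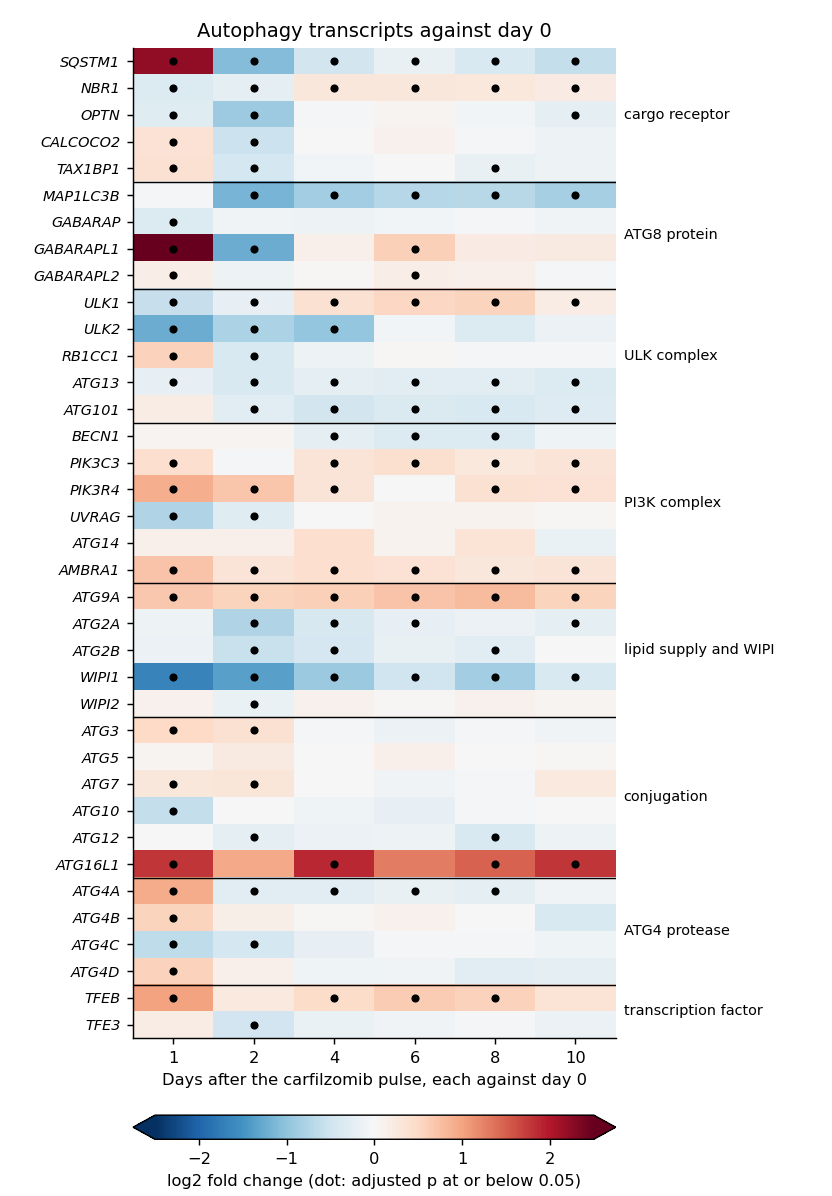
Log2 fold change against day 0 (colour, with the scale cut at the same value in both directions) of the 37 autophagy transcripts that passed the filter on low counts, in rows by role, on days 1 to 10 in columns. Dots mark an adjusted p at or below 0.05. GABARAPL1 and SQSTM1 are the darkest red cells on day 1 and turn blue on day 2, and WIPI1 is blue on every day.

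Among the cargo receptors, SQSTM1 rose on day 1 by 4.67-fold and fell below its starting level on day 2, and all 5 receptor transcripts were lower on day 2 than on day 0. SQSTM1 (chr5:179806398-179838078 in GENCODE release 44, GRCh38) encodes p62, which binds ubiquitin chains and ATG8 proteins and also holds KEAP1, the inhibitor of the oxidative stress factor NRF2. In replicates 1 to 5, SQSTM1 had 713, 766, 647, 749 and 779 CPM on day 0, 3510.4, 3337, 3323, 3618 and 3283 on day 1, and 325, 345, 321, 410.4 and 326 on day 2. It had 562, 483, 552, 533 and 523 CPM on day 4, 645, 699.6, 629, 616 and 602 on day 6, 534, 599, 539.8, 494 and 639 on day 8, and 462, 506, 479, 523 and 452 on day 10. Every day 1 library lay above every other library of the series, and every day 2 library lay below every day 0 library. The log2 fold change against day 0 was 2.22 ± 0.07 (SE, Q = 4.35e-28) on day 1, -1.08 ± 0.07 (Q = 8.57e-18) on day 2 and -0.59 ± 0.07 (Q = 8.74e-10) on day 10. Between days 1 and 2 the SQSTM1 transcript dropped by 3.31 on the log2 scale (Q = 1.2e-32). On days 4, 6 and 8 it stood at -0.46, -0.20 and -0.38 against day 0, all at Q at or below 0.05, and the day 6 call was lost without day 0 replicate 5 (Q = 0.0534) or without day 6 replicate 5 (Q = 0.0508).

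The NBR1 transcript, which encodes another ubiquitin-binding receptor that works beside p62, took a different course. In replicates 1 to 5, NBR1 had 263, 259.8, 277, 272 and 287 CPM on day 0, 213, 212, 225, 207 and 213 on day 1, and 239.8, 240.4, 239.6, 205 and 241 on day 2. Later it had 323, 318, 358, 320.2 and 336 CPM on day 4, 340.5, 336, 316, 334 and 319 on day 6, 299.98, 329, 342, 330.0 and 326 on day 8, and 304, 313, 322, 319 and 311 on day 10. All libraries of days 1 and 2 lay below all day 0 libraries, and all libraries of days 4 to 10 lay above them. Its log2 fold change was -0.35 ± 0.05 (Q = 2.79e-08) on day 1, -0.22 ± 0.05 (Q = 8.84e-05) on day 2, and 0.28, 0.28, 0.26 and 0.21 on days 4, 6, 8 and 10 (largest Q = 0.000406). On day 10 SQSTM1 was thus lower and NBR1 higher than at the start.

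OPTN, CALCOCO2 and TAX1BP1 encode receptors that act on damaged mitochondria, invading bacteria and protein aggregates. OPTN had 79.5, 82.8, 81.3, 86.4 and 83.4 CPM on day 0, 63.4, 71.0, 65.2, 63.8 and 73.7 on day 1, and 42.5, 46.8, 43.2, 41.3 and 45.9 on day 2. Later libraries had 77.8, 79.8, 85.6, 77.2 and 81.8 CPM on day 4, 81.2, 85.8, 86.9, 83.7 and 97.7 on day 6, 76.0, 78.6, 84.4, 73.9 and 80.6 on day 8, and 72.3, 71.0, 71.2, 75.0 and 64.8 on day 10. It was lower in all 5 libraries of days 1, 2 and 10, with log2 fold changes of -0.29, -0.91 ± 0.06 (Q = 3.26e-17) and -0.22 (Q = 0.00178), and its ranges overlapped day 0 on days 4, 6 and 8. CALCOCO2, which encodes NDP52, had 86.5, 76.7, 74.7, 83.0 and 87.8 CPM on day 0, 104, 102, 117, 104 and 98.7 on day 1, and 60.0, 55.5, 56.4, 53.7 and 56.9 on day 2. On the later days CALCOCO2 had 84.1, 71.7, 88.8, 78.1 and 88.7 CPM on day 4, 91.7, 90.8, 91.3, 75.8 and 87.7 on day 6, 70.9, 79.8, 84.6, 82.3 and 80.3 on day 8, and 79.1, 78.8, 71.5, 78.4 and 67.5 on day 10. All its day 1 libraries lay above and all its day 2 libraries below the day 0 range, with log2 fold changes of 0.36 ± 0.06 (Q = 6.29e-06) and -0.53 ± 0.07 (Q = 5.95e-09), and no later day passed the test. TAX1BP1 had 169.7, 179, 175, 188 and 193 CPM on day 0, 217, 232, 248, 245 and 231 on day 1, and 135, 134, 134, 129 and 137 on day 2. Later libraries had 164, 160.3, 186, 159.9 and 194 CPM on day 4, 182, 183, 179.8, 190.5 and 167 on day 6, 138, 158, 175, 152 and 167 on day 8, and 149.7, 162, 184, 167 and 162 on day 10. It moved in the same order, by 0.38 ± 0.06 on day 1 and -0.43 ± 0.06 on day 2 (Q = 6.52e-07 and 6.28e-08), without overlap with day 0 on either day, and by -0.19 on day 8 (Q = 0.00883). The day 8 call was lost without day 8 replicate 1 (Q = 0.0790) or day 0 replicate 5 (Q = 0.0580).

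**Figure D3:**
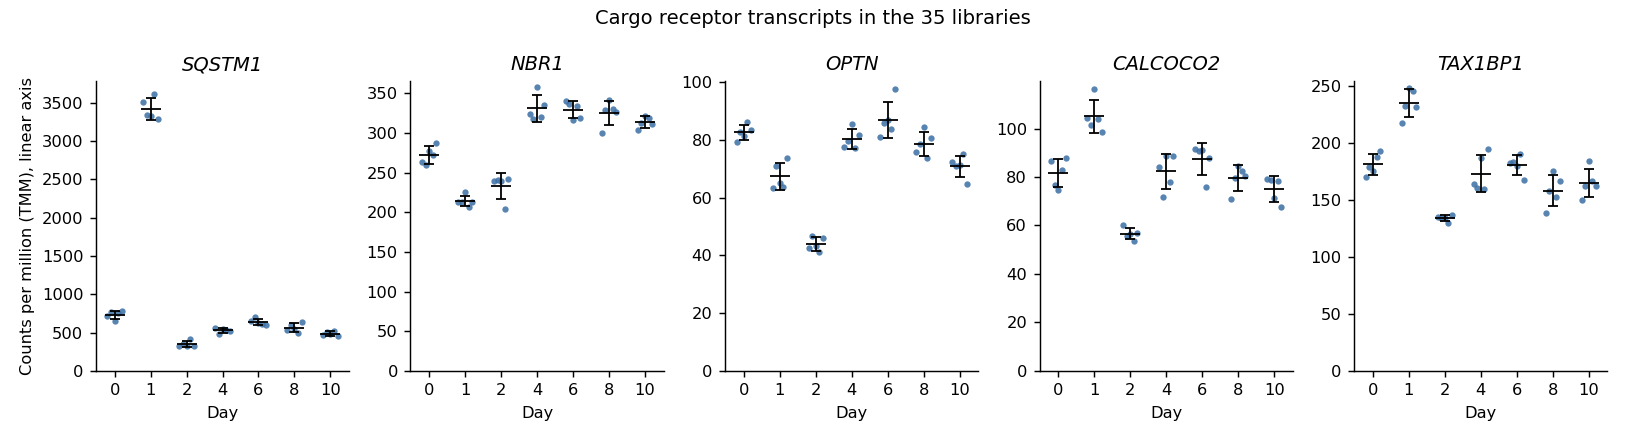
CPM of the 5 cargo receptor transcripts on a linear axis from 0, 1 panel a gene, by day. Points are the 5 subcultures of a day, and bars are the mean and SD. SQSTM1 has 3283 to 3618 CPM on day 1 and at most 779 CPM in any other library, and all 5 transcripts are lower on day 2 than on day 0.

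The ATG8 genes encode small ubiquitin-like proteins that are tied to the autophagosome membrane and hold cargo receptors there. GABARAPL1 rose 7.13-fold on day 1, MAP1LC3B did not pass the test on day 1 and was lower on every later day, and GABARAP and GABARAPL2 moved little. GABARAPL1 (chr12:10212458-10223128) had 12.2, 6.51, 12.9, 8.82 and 9.43 CPM on day 0, 74.4, 67.4, 75.2, 75.8 and 64.8 on day 1, and 2.73, 4.50, 3.49, 7.87 and 2.83 on day 2 in replicates 1 to 5. It then had 9.88, 7.88, 12.1, 10.5 and 14.5 CPM on day 4, 17.8, 16.9, 14.3, 10.9 and 15.2 on day 6, 10.7, 9.74, 12.6, 12.1 and 12.4 on day 8, and 7.21, 12.9, 15.02, 12.7 and 9.94 on day 10. All day 1 libraries lay far above every day 0 library, and 4 of the 5 day 2 libraries lay below all of them, with replicate 4 inside the day 0 range. Log2 fold changes were 2.83 ± 0.17 (Q = 7.08e-18) on day 1 and -1.23 ± 0.22 (Q = 8.14e-06) on day 2, a step of -4.07 from day 1 to day 2. The rise of 0.59 ± 0.19 on day 6 (Q = 0.0125) was lost without day 0 replicate 2 (0.47, Q = 0.0577).

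MAP1LC3B (chr16:87383953-87404779), which encodes LC3B, the ATG8 protein most used to follow autophagosomes, had 77.4, 81.9, 70.4, 87.8 and 94.3 CPM on day 0, 79.2, 80.1, 85.01, 81.3 and 76.3 on day 1, and 39.9, 39.1, 34.4, 31.3 and 38.1 on day 2. On later days MAP1LC3B had 47.5, 49.2, 48.3, 38.8 and 41.4 CPM on day 4, 54.4, 51.8, 46.1, 46.7 and 52.4 on day 6, 41.6, 55.5, 51.7, 50.2 and 56.7 on day 8, and 48.0, 45.5, 48.9, 49.97 and 39.8 on day 10. Days 0 and 1 overlapped, and all 25 libraries of days 2 to 10 lay below both. The log2 fold change was -0.03 ± 0.08 (Q = 0.776) on day 1, -1.17 ± 0.08 (Q = 9.6e-16) on day 2 and -0.82 ± 0.08 (Q = 6.96e-11) on day 10, with -0.87, -0.71 and -0.68 between. MAP1LC3B2, a nearly identical copy, had 32 counts on day 0 and 2 on day 1 against 2388 and 2475 for MAP1LC3B in the same libraries, and how the counting divided reads between the copies is uncertain. MAP1LC3A, which encodes LC3A, had 8 counts over all 35 libraries and none on day 2.

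GABARAP had 139, 141, 129, 152 and 147 CPM on day 0, 98.5, 116, 118, 107 and 117 on day 1, and 139, 147, 128, 127 and 125 on day 2. Later libraries had 146, 126.1, 146, 129.6 and 101.4 CPM on day 4, 126.5, 142, 144, 136 and 131 on day 6, 125.7, 147, 134, 139 and 149.8 on day 8, and 128, 144, 140.2, 132 and 125.6 on day 10. Only day 1 passed the test, at -0.35 ± 0.07 (Q = 6.03e-05), with all 5 libraries below day 0. GABARAPL2, which encodes GATE-16, had 81.6, 80.8, 73.1, 88.8 and 82.2 CPM on day 0, 81.3, 88.8, 91.6, 98.8 and 96.4 on day 1, and 77.8, 82.0, 72.3, 72.8 and 67.6 on day 2. Later libraries had 82.4, 80.1, 95.2, 76.2 and 78.2 CPM on day 4, 89.9, 98.4, 89.0, 91.6 and 88.0 on day 6, 86.8, 97.8, 85.3, 79.7 and 96.9 on day 8, and 73.7, 81.7, 79.8, 79.8 and 76.2 on day 10. Its groups overlapped on every day, and its calls on days 1 and 6 (both 0.17, Q = 0.0295 and 0.0396) were lost under the RLE factors and without any of 6 and 5 single libraries.

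**Figure D4:**
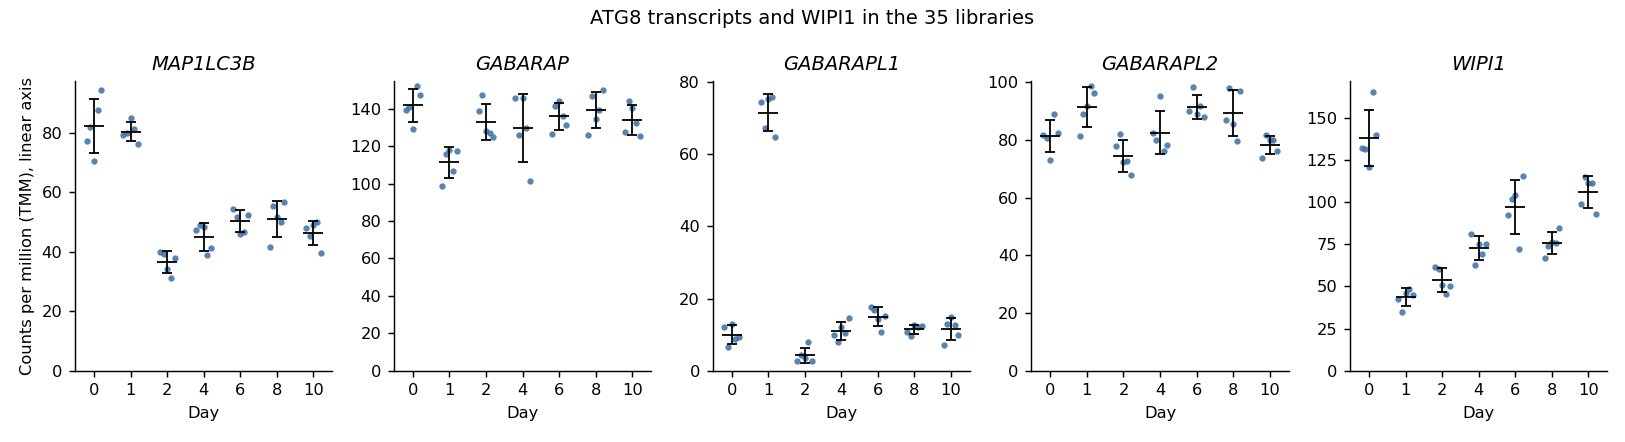
CPM of 4 ATG8 transcripts and of WIPI1 on linear axes from 0, by day, with the 5 subcultures of a day as points and mean and SD as bars. GABARAPL1 has 64.8 to 75.8 CPM on day 1 and at most 17.8 CPM on any other day, MAP1LC3B drops between days 1 and 2, and WIPI1 is lowest on day 1.

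All 5 transcripts of the ULK kinase complex, which receives nutrient and energy signals, were lower on day 2 than on day 0. On day 1 and on the later days their directions differed. ULK1, the main kinase, was at 91.0 ± 11.5 CPM (mean ± SD, n = 5) on day 0 and 61.2 ± 5.55 on day 1. It was at 79.0 ± 3.86 CPM by day 2 and reached 134 ± 16.1 by day 8. ULK1 was below every day 0 library on day 1 (-0.58 ± 0.08, Q = 2.51e-08) and above every day 0 library on days 4, 6 and 8 (0.37, 0.52 and 0.56). Its calls of -0.21 on day 2 (Q = 0.0198) and 0.19 on day 10 (Q = 0.0480) were small. Without 1 library Q reached 0.0722 for day 2 (day 0 replicate 3) and 0.130 for day 10 (day 0 replicate 5). ULK2, a related kinase, had 5.20, 6.82, 7.51, 8.62 and 5.97 CPM on day 0, 2.94, 4.09, 3.73, 1.72 and 1.86 on day 1, and 3.88, 4.50, 3.72, 4.32 and 3.15 on day 2. Later libraries had 2.71, 4.10, 5.17, 3.17 and 2.07 CPM on day 4, 9.34, 5.32, 4.59, 7.49 and 5.31 on day 6, 4.89, 5.43, 5.71, 4.51 and 6.13 on day 8, and 7.39, 4.69, 7.75, 4.89 and 5.93 on day 10. ULK2 lay below the day 0 range in all libraries of days 1, 2 and 4 (-1.23, -0.79 and -0.96, largest Q = 0.00393) and overlapped it from day 6 on.

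RB1CC1, which encodes the scaffold FIP200, rose on day 1 from 90.6 ± 2.01 to 135 ± 3.60 CPM (0.58 ± 0.06, Q = 8.2e-11), fell to 69.3 ± 1.89 on day 2 (-0.39 ± 0.06, Q = 1.58e-06) and passed no test later. ATG13, the adaptor that joins kinase and scaffold, was lower on all 6 days, between -0.38 on day 2 and -0.20 on day 1. ATG101, its partner, did not pass on day 1 (0.18, Q = 0.0905) and was lower from day 2 on, between -0.45 on day 4 and -0.28 on day 2.

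The PI3K complex makes the lipid signal on the growing membrane. Its PIK3R4, PIK3C3 and AMBRA1 transcripts were higher on most days, and UVRAG and BECN1 were lower on some. PIK3R4, which encodes the regulatory subunit VPS15, went from 18.6 ± 2.38 CPM on day 0 to 34.6 ± 1.58 on day 1 and 30.0 ± 2.74 on day 2 (0.90 ± 0.09 and 0.70 ± 0.09, Q = 5.54e-11 and 3.33e-08), without overlap on either day. PIK3R4 was also higher on days 4, 8 and 10 (0.32, 0.37 and 0.35, largest Q = 0.00736) and at -0.02 (Q = 0.957) on day 6. PIK3C3, the lipid kinase VPS34, was higher on days 1, 4, 6, 8 and 10, between 0.27 and 0.43, and at -0.06 (Q = 0.537) on day 2. AMBRA1, which ties the complex to ULK1, was higher on all 6 days, most on day 1 at 34.2 ± 2.87 against 20.8 ± 3.26 CPM (0.71 ± 0.11, Q = 5.51e-07). Single libraries decided its calls on days 2, 8 and 10, with Q of 0.0876, 0.125 and 0.0873 without day 0 replicate 4. UVRAG, a subunit of the endosomal form of the complex, fell on day 1 from 47.8 ± 3.16 to 28.5 ± 1.71 CPM (-0.74 ± 0.08, Q = 5.04e-11), stayed lower on day 2 (-0.29) and passed no test later. BECN1, the scaffold Beclin, was lower on days 4, 6 and 8 (-0.22, -0.34 and -0.35). ATG14, which directs the complex to autophagosomes, spread over 2.70 to 13.9 CPM on day 0 and 0 to 13.9 on day 10, with no call on any day (SE of the log2 fold change 0.47 on day 1).

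Lipid supply split between the scramblase ATG9A and the lipid transfer proteins ATG2A and ATG2B. ATG9A rose from 38.2 ± 9.81 CPM on day 0 to between 56.4 and 66.6 CPM on the later days, with every library of every later day above every day 0 library and log2 fold changes between 0.55 (day 2) and 0.79 (day 8, Q = 2.57e-07). With its transcript classes summed the values were smaller and still past the test, at 0.35 and 0.59 on those days. ATG2A and ATG2B did not pass on day 1 (-0.13 and -0.15) and fell on day 2 by 0.74 (Q = 1.33e-13) and 0.55 (Q = 4.45e-07) on the log2 scale. ATG2A was also lower on days 4 and 6 (-0.41 and -0.20, largest Q = 0.00893). ATG2B was also lower on days 4 and 8 (-0.42 and -0.29, largest Q = 0.00447). On day 10 ATG2A was at -0.23 (Q = 0.00224) and ATG2B at 0.00 (Q = 1.00).

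WIPI1 (chr17:68420948-68457513), which encodes a reader of the PI3K lipid, was below its starting level on all 6 days, most on day 1. It had 132, 132, 121, 165 and 140.0 CPM on day 0, 42.6, 34.8, 46.2, 48.7 and 44.97 on day 1, and 61.7, 60.4, 50.8, 45.3 and 50.03 on day 2. On the later days WIPI1 had 80.9, 62.7, 75.3, 69.1 and 75.3 CPM on day 4, 92.3, 102, 104, 72.2 and 115 on day 6, 66.7, 74.1, 76.3, 75.4 and 84.9 on day 8, and 98.8, 115, 111, 111 and 92.7 on day 10. All 30 libraries after the pulse lay below all day 0 libraries. The log2 fold change was -1.67 ± 0.10 (Q = 8.17e-18) on day 1, -1.36 ± 0.10 (Q = 2.13e-15) on day 2, -0.92, -0.50 and -0.87 on days 4, 6 and 8, and -0.38 ± 0.09 (Q = 0.00142) on day 10. WIPI2, the family member that recruits the conjugation machinery, had 112 ± 2.98 CPM on day 0 and 99.8 ± 11.4 on day 2, where a single small call (-0.16, Q = 0.0395) was lost without any of 4 single libraries, day 2 replicate 4 among them (-0.10, Q = 0.185).

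The DNA before the start sites of these 3 genes is shown because 2 of them rose and fell together and WIPI1 moved the other way on day 1. The stretches lie within 250 bases before a RefSeq transcript start (GRCh38.p14) and hold no exon of GENCODE release 44. Capitals mark the GC box GGGCGG on either strand.
SQSTM1 chr5:179820707-179820877, plus strand: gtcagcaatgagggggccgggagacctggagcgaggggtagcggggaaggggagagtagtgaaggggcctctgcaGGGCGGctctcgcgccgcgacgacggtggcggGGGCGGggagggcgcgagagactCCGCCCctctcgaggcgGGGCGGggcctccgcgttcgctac
GABARAPL1 chr12:10212754-10212835, plus strand: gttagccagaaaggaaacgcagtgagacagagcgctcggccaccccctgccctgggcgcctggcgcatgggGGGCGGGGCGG
WIPI1 chr17:68457514-68457746, minus strand: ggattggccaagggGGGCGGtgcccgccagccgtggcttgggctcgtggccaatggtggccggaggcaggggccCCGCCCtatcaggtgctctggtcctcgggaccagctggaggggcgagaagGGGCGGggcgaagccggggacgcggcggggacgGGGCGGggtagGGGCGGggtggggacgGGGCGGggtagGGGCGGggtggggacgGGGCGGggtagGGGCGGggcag
They hold 4, 2 and 9 GC boxes, and matches may share bases. Shorter stretches before other SQSTM1 starts, not shown, held 2 GC boxes each. In the window from 250 bases before to 50 after each start, RefSeq promoters were found for 34 of the 38 members (44 promoters), and 31 of these 44 (70.5%) held a GC box, beside 44.95% of all 35116 promoters. The cAMP response element TGACGTCA was found in the GABARAPL1 window, 30 bases before the start, and in no other member, beside 1.85% of all promoters. Both motifs were picked after the sequences had been read. The core of the antioxidant response element, TGACNNNGC, was found in ATG101, CALCOCO2 and MAP1LC3B (6.82% of member promoters, 13.3% of all) and the E-box CACGTG of TFEB targets in ATG14 and ATG3 (4.55% and 7.26%), with the longer CLEAR element in none (0.353% of all). The heat shock core GAANNTTC was found in GABARAPL2 and TAX1BP1 (4.55% and 6.77%), and the ATF4-type element TGATGNAA in none (3.62% of all). A match is a description of letters only.

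The coding entries of the conjugation enzymes changed little apart from ATG16L1. ATG3 and ATG7, the enzymes that activate and transfer ATG8 proteins, were higher on days 1 and 2, ATG3 by 0.50 ± 0.07 and 0.38 ± 0.07 (Q = 6.69e-08 and 1.11e-05) with all 10 libraries above day 0, and ATG7 by 0.28 and 0.30 (Q = 0.0400 and 0.0270), calls that were lost without day 0 replicate 4 (Q = 0.125 and 0.0956) and other single libraries. ATG10, which joins ATG12 to ATG5, fell on day 1 alone (-0.59 ± 0.12, Q = 5.22e-05). ATG12 was lower on day 2 (-0.23, Q = 0.0229, lost without day 2 replicate 4 or 5) and day 8 (-0.38, Q = 0.000355). The coding entry of ATG5 had day means between 8.91 and 10.5 CPM and passed on no day, and its classes summed were higher on days 1 and 2 (0.54 and 0.19, Q = 5.28e-08 and 0.0391).

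ATG16L1, which places the conjugation complex on the membrane, rose as a protein-coding entry but fell when all transcript classes of the symbol were counted. Its protein-coding entry had 1.83, 4.28, 0, 1.00 and 3.27 CPM on day 0, 7.06, 7.71, 7.62, 7.89 and 6.59 on day 1, and 1.29, 3.32, 8.56, 3.24 and 3.62 on day 2. Later libraries had 8.76, 5.36, 12.6, 5.23 and 6.91 CPM on day 4, 7.67, 5.32, 7.05, 4.11 and 1.72 on day 6, 0.175, 6.78, 11.9, 3.24 and 7.09 on day 8, and 6.33, 7.39, 9.69, 5.81 and 7.22 on day 10. Days 1, 4 and 10 lay above all day 0 libraries, and days 2, 6 and 8 overlapped them. Log2 fold changes were 1.80 ± 0.51 (Q = 0.00257), 1.88 ± 0.50 (Q = 0.00225), 1.47 ± 0.51 (Q = 0.0213) and 1.78 ± 0.51 (Q = 0.00518) on days 1, 4, 8 and 10, and the day 8 call was lost without any of 3 single libraries (day 8 replicate 3, Q = 0.135, day 0 replicate 3 or 4). With counts of all classes summed, the same days gave -0.38, -0.82, -0.55 and -0.58, each past the test in the other direction. The protein-coding share of the ATG16L1 counts had a median of 6.91% over the day 0 libraries, 38.9% on day 1 and 51.3% on day 4, with 62 of 785 counts on day 0 and 227 of 610 on day 1.

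The ATG4 proteases, which trim ATG8 proteins before conjugation and free them afterwards, moved apart on day 1. ATG4A rose from 39.4 ± 2.21 to 74.8 ± 3.45 CPM (0.92 ± 0.07, Q = 2.02e-14) without overlap, was lower on days 2, 4, 6 and 8 (between -0.29 and -0.19) and did not pass on day 10. Its day 6 call was lost without any of 6 single libraries, with the highest Q without day 6 replicate 4 (-0.13, Q = 0.213), and its day 8 call without any of 5 (Q up to 0.0784). ATG4B and ATG4D rose by 0.55 ± 0.19 and 0.58 ± 0.20 (Q = 0.0153 and 0.0149), with 3 of 5 libraries above the day 0 range each, and each call was lost without either of 2 libraries. These were day 0 or day 1 replicate 4 for ATG4B (Q = 0.0695 and 0.0676) and day 0 replicate 1 or 3 for ATG4D (Q = 0.0539 and 0.0693). With classes summed, ATG4D was higher on day 1 by 0.64 (Q = 2.02e-08) and ATG4B on all 6 days, at 0.46 on day 1 (Q = 5.14e-06), 0.49 on day 6 (Q = 2.51e-06) and 0.22 on day 10 (Q = 0.0353), where its coding entry was at -0.39 (Q = 0.156). ATG4C fell by 0.64 on day 1 (Q = 2.03e-07) and 0.43 on day 2 (Q = 0.000109) on the log2 scale, without overlap with day 0.

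TFEB and TFE3 encode related transcription factors of lysosome and autophagy genes. TFEB had 6.61, 4.28, 4.11, 4.61 and 5.20 CPM on day 0, 9.85, 10.4, 9.99, 10.3 and 9.81 on day 1, and 7.75, 5.90, 5.63, 5.24 and 4.88 on day 2. Later libraries had 9.56, 5.83, 5.89, 7.45 and 5.87 CPM on day 4, 9.34, 8.35, 7.21, 7.78 and 6.18 on day 6, 8.73, 7.65, 6.46, 6.20 and 8.24 on day 8, and 4.57, 7.10, 5.81, 6.57 and 7.38 on day 10. All day 1 libraries lay above day 0, and all other days overlapped it. TFEB rose by 1.01 ± 0.17 on day 1 (Q = 2.71e-06), by 0.64 on day 6 (Q = 0.00308) and 0.57 on day 8 (Q = 0.00837), and its call on day 4 (0.47, Q = 0.0315) was lost without any of 4 single libraries, day 4 replicate 1 among them (0.32, Q = 0.166). The coding entry of TFE3 fell on day 2, from 67.5 ± 8.31 to 48.6 ± 8.30 CPM (-0.48 ± 0.13, Q = 0.00142). With its transcript classes summed, TFE3 was lower on each day after day 1, at -0.88, -0.39, -0.15, -0.22 and -0.30 on the log2 scale (Q between 1.84e-20 and 0.0170).

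Whether related members moved differently was tested by the log2 ratio of 2 transcripts within a library, which needs no scaling between libraries. The list of pairs, like the other lists, was chosen with earlier results of these data known. Its tests use the same libraries as the calls above and are not independent of them. The exact two-sided permutation test over 5 against 5 libraries was run for 11 pairs on days 1, 2 and 10, with Benjamini-Hochberg adjustment over the 33 tests, and the smallest p it can give is 0.00794. On day 1, 6 pairs passed. The ratio of SQSTM1 to NBR1 rose by 2.57, of GABARAPL1 to GABARAPL2 by 2.70, of GABARAPL1 to GABARAP by 3.22, of ATG4D to ATG4C by 1.25 and of TFEB to TFE3 by 0.84. The ratio of WIPI1 to WIPI2 dropped by 1.76. Each had adjusted p = 0.0262 by the permutation test and all 5 libraries outside the day 0 range. With 4 against 5 libraries the smallest p is 0.0159, and no pair passed on any of the 3 days without day 0 replicate 2, 4 or 5 (smallest adjusted p in this exact permutation test 0.0524 on day 1). On day 2, SQSTM1 to NBR1 was at -0.86 and WIPI1 to WIPI2 at -1.19 (permutation test, adjusted p = 0.0262 each) and TFEB to TFE3 at 0.72 (adjusted p = 0.0476, 4 of 5 libraries outside). On day 10, SQSTM1 to NBR1 was at -0.80 and WIPI1 to WIPI2 at -0.44, with adjusted p = 0.0262 by the permutation test and no overlap with day 0. CALCOCO2 to TAX1BP1 differed from day 0 by -0.01, -0.10 and 0.01 on the 3 days and did not pass.

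Among the intervals between sampled days from day 1 on, the one from day 1 to day 2 had the most members called. Day 1 against day 0, given above, had 17 risen and 10 fallen, against 25.4% and 27.3% of all entries. Of 38 members, 6 were higher and 19 lower on day 2 than on day 1, against 20.2% and 19.4% of all entries, and those past a 2-fold decrease were SQSTM1 (-3.31), GABARAPL1 (-4.07), MAP1LC3B (-1.13) and ATG4A (-1.21), against 3.49% of all entries. None was higher past that fold, against 6.79%. From day 2 to day 4, 14 were higher and 4 lower, against 13.9% and 16.7%. All 5 receptors rose in that interval, SQSTM1 by 0.62, OPTN by 0.87, CALCOCO2 by 0.54, NBR1 by 0.51 and TAX1BP1 by 0.37, and ATG3, ATG7, BECN1 and PIK3R4 fell. Past a fold of 2, GABARAPL1 alone was higher (1.36), against 2.08% of all entries, and none lower, against 1.02%. Day 6 had 4 risen and 1 fallen against day 4 (6.09% and 5.98% of all entries), and day 8 had 1 risen and 1 fallen against day 6 (1.03% and 1.53%). Day 10 had 3 risen and 2 fallen against day 8 (5.08% and 4.97%). In these 3 intervals no member was past a 2-fold change. All entries past it made up 0.422% higher and 0.206% lower in the interval to day 6, 0.0611% and 0.0667% to day 8, and 0.228% and 0.45% to day 10. WIPI1 was called in all 5 intervals, higher in 4 and lower from day 6 to day 8 (-0.36, Q = 0.0300). The last interval held the rises of WIPI1 (0.49), ATG2B (0.29) and BECN1 (0.24) and the falls of ULK1 (-0.37) and SQSTM1 (-0.21).

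The table also counts other transcript classes of the same symbols, which the choice of members did not use. Counts are estimates, and how reads of a gene were divided between its classes is uncertain, so the classes are not independent of the coding entries. The 38 symbols had 84 entries of the classes retained intron, nonsense-mediated decay and processed transcript, of which 82 had a count. On day 1, 7 rose and 8 fell, against 4.94% and 10.9% of all 25329 entries of these classes, and on day 2 none rose and 11 fell, against 3.84% and 9.53%. Later days had 2 risen each and 7, 6, 5 and 3 fallen on days 4, 6, 8 and 10, against 2.89%, 3.02%, 2.68% and 2.53% risen and 7.19%, 5.2%, 6.04% and 4.18% fallen. The retained-intron entry of SQSTM1 followed the coding entry, with 215 to 339 counts per library on day 0, 701 to 1011 on day 1 and 25 to 103 on day 2, and log2 fold changes of 1.75 (edgeR Q = 1.19e-11) and -2.23 (Q = 5.31e-13). On day 10 it was still lower, at -1.27 (Q = 4.76e-07), while its share of the SQSTM1 counts went from a median of 6.13% on day 0 to 2.09% on day 8 and 3.37% on day 10. The decay class of SQSTM1 had 232 counts on day 0, 222 on day 1 and 17 on day 2, a fall on day 2 (-3.95, Q = 1.73e-09).

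MAP1LC3B changed on day 1 in its decay class and not in its coding class. Its nonsense-mediated decay entry had 30 to 111 counts per library on day 0 and 131 to 189 on day 1 (1.28, Q = 0.000348), and its median share of the MAP1LC3B counts went from 14.8% to 25.0%. With all classes summed, MAP1LC3B was higher on day 1 by 0.23 (Q = 0.00397). The decay entry of GABARAPL1 rose on day 1 by 1.34 and fell on day 2 by 1.93 (Q = 0.0128 and 0.00167), with 163, 373 and 47 counts on days 0, 1 and 2. The retained-intron entries of ATG4B and PIK3C3 were higher on days 4, 6 and 10, ATG4B by 0.94 and PIK3C3 by 0.93 on day 6, and that of ATG101 was lower from day 2 on, at -2.47 on day 4. The processed transcript and retained-intron entries of WIPI1 fell on day 1 (-1.40 and -0.97), like its coding entry.

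**Figure D5:**
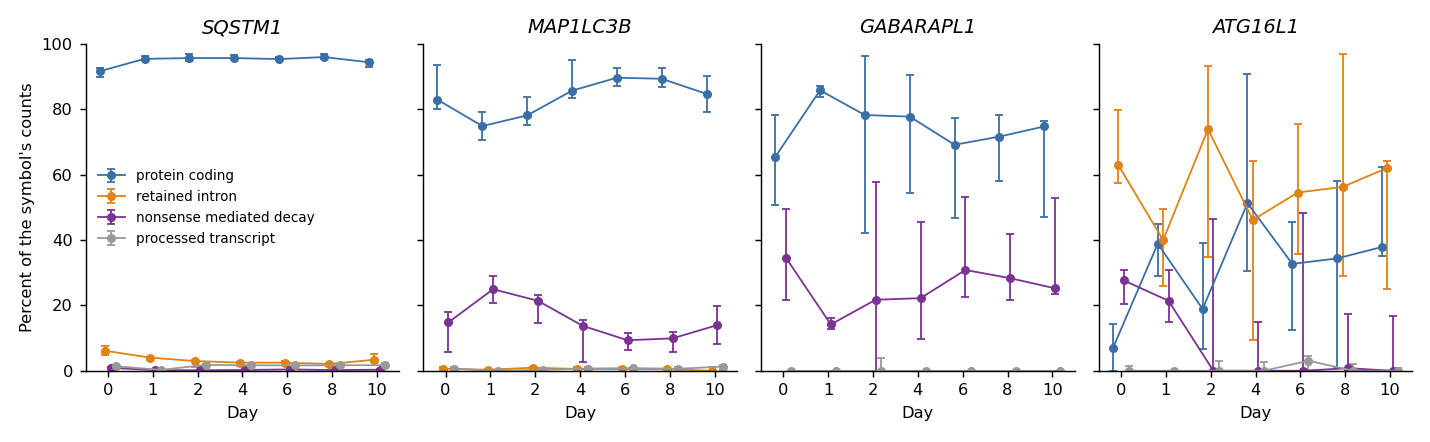
Share of the counts of SQSTM1, MAP1LC3B, GABARAPL1 and ATG16L1 in 4 transcript classes, by day. Points are medians of the 5 libraries and bars run from the lowest to the highest library, slightly shifted sideways. The protein-coding share of SQSTM1 lies between 89.96 and 96.9 percent in each library, and that of ATG16L1 spreads from 0 to 90.7 percent between libraries.

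Genes of the pathway outside the 38 were taken from a list of 53, of which 21 rose and 19 fell on day 1, 11 and 22 on day 2, 13 and 19 on day 4, 9 and 15 on day 6, 9 and 16 on day 8, and 5 and 18 on day 10, against the shares of all entries given above. Past a fold of 2 on day 1, 5 of the 53 rose, against 7.27% of all entries. They were BAG3 (1.73, Q = 1.62e-14), the cochaperone that sends chaperone clients to autophagy, TBK1 (1.45), the kinase that activates OPTN and p62, ATG9B (1.39), a paralog of ATG9A, BNIP3 (1.07), a mitophagy receptor, and VMP1 (1.05), an ER membrane protein needed for the sac to form. BNIP3 stayed higher through day 10 (0.39, Q = 0.000599), whereas ATG9B was lower on day 10 (-1.27, Q = 4.06e-06) than at the start.

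The falls past a fold of 2 on day 1 numbered 9 of the 53, against 13.2% of all entries, 2 of them in genes with few counts. TP53INP1, a p53-induced protein that binds ATG8 proteins, went from 448 to 43.8 CPM (-3.36, Q = 1.82e-29) and its relative TP53INP2 from 54.6 to 13.9 CPM (-1.97, Q = 1.32e-19). Both were lower on all 6 days, at -0.71 and -1.04 on day 10. HDAC6, which carries ubiquitinated aggregates along microtubules, fell by 1.71 (Q = 4.53e-17) and TFEC, a relative of TFEB, by 1.82 (Q = 2.27e-20) on the log2 scale. The ER-phagy receptors CCPG1 and CALCOCO1 were at -1.04 and -1.07 on day 1 and at -2.39 and -1.34 on day 2, and CCPG1 was still at -0.90 (Q = 5.51e-14) on day 10. The others were NRBP2 (-1.08) and, with 32 and 14 counts on day 0, MAP1LC3B2 and PARK2.

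Exons of 13 of the 38 members overlap exons of a protein-coding gene on the other strand, and whether the counting used strand is not given in the sources used here. The overlap covers 21.0% of the exon bases of SQSTM1 (with MRNIP, listed as C5orf45) and 24.4% of those of WIPI1 (with ARSG). The protein-coding entry of C5orf45, with 644 counts on day 0, moved against SQSTM1 on day 1 (-1.19, Q = 1.07e-06) and was at -0.27 (Q = 0.212) on day 2. Its nonsense-mediated decay entry, with 2102 counts on day 0, had 71.1 ± 14.8 CPM on day 0, 68.6 ± 16.5 on day 1 and 19.9 ± 2.64 on day 2, and was not tested. ARSG was lower on all 6 days, like WIPI1, at -1.39 on day 1 and -0.56 on day 10. The paper describes a directional library kit, so the reads themselves carry strand. Reads from the shared exon bases cannot be told apart if the counting did not use it.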

How the data were processed

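RNA-seq was made in 35 RPMI-8226 libraries, from 5 subcultures on each of 7 days. Per the labels and methods, the authors quantified reads with kallisto 0.44.0 against GENCODE release 28 (GRCh38.p12) with GC-bias adjustment and summed them with tximport, correcting for length. The submitters' processing notes also name R 3.5.0 and DESeq2 1.25.8. The deposited table holds unnormalized estimated counts, as whole numbers, for 84647 entries of symbol and transcript class. Whether the counting used strand is not given in the sources used here. From these, the 17999 protein-coding entries with a count were fitted together in edgeR 4.0.16 (R 4.3.3) by the quasi-likelihood test with TMM factors and a term for each day (all 35 libraries), with Benjamini-Hochberg adjustment and no replicate block. Calls needed Q at or below 0.05, and a fold above 2 was a further cutoff. Counts of 6519392 to 10962890 per library limit low transcripts, and length correction and the choice of transcript class can change a value, as for ATG16L1. Pairs of transcripts were compared by exact permutation tests (SciPy 1.17.1) on log2 ratios with 0.5 added to each count.

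On simulated day 1 and day 0 counts of 16594 genes, the test called 99 of 100 genes changed 4-fold, 76 of 100 changed 1.5-fold and 14 of 16394 unchanged genes. The changed genes all rose and were drawn from genes above a minimum mean count on day 0. The real day 1 had falls as well and far more genes called. These rates may therefore not hold for the real data or for members with few counts. Values in every library are given for receptors, ATG8 genes and members past a fold of 2 on a day against day 0. Members and lists were chosen with earlier results of these data known. Promoters came from RefSeq (GRCh38.p14) and positions from GENCODE release 44. Alternatives were DESeq2 1.42.0, its size factors, no factors, a filter on low counts (filterByExpr), a replicate block, fits to 2 days only, summed transcript classes, a prior count of 2 and leaving out each library. Figures were drawn with matplotlib 3.10.9.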

Additional observations from a re-analysis of the deposited data

Results flagged for a closer look

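In 11 of the 259 sets of 5 libraries examined (37 members on 7 days), the highest or lowest library stood apart from the other 4 by Dixon's criterion, which flags about 1 set in 20 by chance. On day 2, replicate 4 had 410.4 CPM of SQSTM1 (others 321 to 345), 205 of NBR1 (others 239.6 to 241) and 72.6 of RB1CC1 (others 68.2 to 69.1). On day 4, replicate 1 had 131 CPM of WIPI2 (others 118 to 121) and 27.4 of ATG12 (others 33.3 to 34.5), and replicate 3 had 7.33 of ATG4D (others 14.2 to 16.6). On day 6, replicate 4 had 75.8 CPM of CALCOCO2 (others 87.7 to 91.7) and 27.6 of ATG4A (others 35.3 to 36.9), and replicate 5 had 37.6 of ATG12 (others 31.7 to 33.0). On day 8, replicate 5 had 18.2 CPM of PIK3R4 (others 24.4 to 26.0), and on day 10, replicate 5 had 32.1 of ATG4C (others 39.9 to 42.2).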

How the results depend on the processing

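Of 119 calls of a member on a day against day 0, 2 were lost with DESeq2, 4 with its size factors, 2 with filterByExpr, 7 with only the 2 days compared and 15 without scaling factors, which moved the median of all entries by 0.12 on day 1 and 0.13 on day 2. With transcript classes summed, 1 was lost, 16 were gained, and ATG16L1 turned to -0.38, -0.82, -0.55 and -0.58 on days 1, 4, 8 and 10. Each of the 119 calls was also refitted with 1 library of its 2 days left out in turn, and 76 of these 1190 refits lost the call. A single call could be lost in several refits, as in 7 for ATG7 on day 1, so 76 of 1190 is not the share of calls that depend on 1 library.

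Past a fold of 2, members higher and lower numbered 4 and 2 on day 1, 0 and 4 on day 2, 1 and 0 on days 4, 8 and 10, and 0 and 0 on day 6, with 0 and 4 from day 1 to 2, 1 and 0 from day 2 to 4, and 0 and 0 in later intervals. Without factors, 5 members were lower on day 6 and 2 from day 4 to 6. From day 6 to 8, 2 were lower with summed classes or DESeq2, and with only those days 0 were higher and 0 lower. From day 8 to 10, 4 were lower with DESeq2 or filterByExpr, 5 with summed classes and 1 with only those days. Summed classes gave 7 higher from day 4 to 6, and 10 changed pairs on day 2 and 5 on day 10. The cause of these shifts was not tested.

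Leaving out 1 library gave 3 to 5 members higher on day 2 (3 without day 0 replicate 1 or 4), 2 to 6 higher (2 without day 6 replicate 1) and 0 to 1 lower from day 4 to 6, 0 to 1 higher and 0 to 1 lower from day 6 to 8, and 1 to 3 lower from day 8 to 10. Changed pairs ranged from 0 to 7 on day 1, 0 to 5 on day 2 and 0 to 4 on day 10, and were 0 on each day without day 0 replicate 2, 4 or 5.

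Replicate numbers gave no clear pairing of the samples. The 105 correlations of same-numbered libraries had a median of 0.0012 (-0.12 to 0.14), beside -0.00066 for libraries of other numbers. Of 35 libraries, 14 correlated best with their own number, which is more than an even spread over 5 numbers would give. A weak link between same-numbered libraries is therefore not excluded. The methods can also be read as 5 subcultures followed over the days. The main fit and the ratio tests treated libraries of different days as independent. The replicate block gave 2 members lower from day 6 to 8 and lost 3 calls on a day against day 0. No paired test of the ratios was run, because 5 pairs cannot give p below 0.0625.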
